A study of Mus musculus with 6 samples.

Results

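The 10 genes described here are *Pf4* and *Ppbp*, the CXC chemokines *Cxcl1*, *Cxcl2*, *Cxcl3* and *Cxcl5* encoded beside them, *Cxcl12*, the chemokine receptors *Cxcr2* and *Cxcr4*, and *Csf3*, which encodes granulocyte colony-stimulating factor (G-CSF). They are 10 of the 16579 genes in the table, found by symbol, and all 10 were present. They were selected with measured values in view, namely the counts, FPKM and genotype differences of the same 6 libraries, so their genotype differences are a description. Where a gene is said to pass thresholds or an interval is given, this restates the fit across all genes and is no independent test of it. RNA was sequenced from megakaryocytes (MKs), the large marrow cells that release platelets, sorted by flow cytometry from mouse bone marrow. There were 3 libraries from *Becn1*f/f mice and 3 from mice labelled *Becn1*f/f;*Pf4-iCre*, all 3 months old, and the latter are called the Cre-labelled libraries. Mice of both genotypes carried loxP-flanked *Becn1*, the gene of the autophagy protein Beclin 1, and the *Becn1*f/f;*Pf4-iCre* mice in addition carried an improved Cre recombinase driven by *Pf4* regulatory sequence. The question put to the libraries was how the MK transcriptome differs when *Becn1* is deleted in this lineage.

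CXC chemokines are small secreted proteins that steer leukocytes through receptors coupled to inhibitory G proteins. CXCL1, CXCL2, CXCL3, CXCL5 and the processed form of PPBP bind CXCR2 and draw neutrophils out of the marrow, whereas CXCL12 from marrow stroma binds CXCR4 and holds neutrophils and stem cells in place. G-CSF mobilizes neutrophils from the marrow, in part by lowering CXCL12. PF4 and PPBP are made in quantity by MKs and stored in platelet alpha granules, and MKs are known as a source of CXCL4 (PF4) in the stem cell niche.

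In the RefSeq annotation used here, 6 of the 10 genes stand together on chromosome 5 in the order *Cxcl5*, *Ppbp*, *Pf4*, *Cxcl3*, *Cxcl1* and *Cxcl2*, with *Rassf6* on one side and *Mthfd2l* on the other. *Cxcl15*, which lies between *Cxcl3* and *Cxcl1*, was not found by symbol among the 16579 genes and could not be analysed here. *Cxcl12* is on chromosome 6, *Cxcr2* and *Cxcr4* are on chromosome 1 and *Csf3* is on chromosome 11. The *Pf4-iCre* transgene was built from an artificial chromosome that spans the *Pf4* locus. Which neighbouring genes it carries is not given in the sources used here, and values summed over a gene do not separate transgene copies from the endogenous gene.

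The promoters of *Cxcl1*, *Cxcl2* and *Cxcl3*, close paralogs that encode CXCR2 ligands, are shown because all 3 genes hold the same run of bases, and that of *Pf4* is shown as the neighbour that does not. Each line gives the 120 bases before the annotated start from RefSeq on GRCm38.p6, and capitals mark the run of 11 bases shared by the *Cxcl1*, *Cxcl2* and *Cxcl3* windows.
Cxcl1, chr5:90891125-90891244, plus strand: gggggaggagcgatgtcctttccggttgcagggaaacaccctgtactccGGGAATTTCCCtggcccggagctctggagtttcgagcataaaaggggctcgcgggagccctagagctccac
Cxcl2, chr5:90903779-90903898, plus strand: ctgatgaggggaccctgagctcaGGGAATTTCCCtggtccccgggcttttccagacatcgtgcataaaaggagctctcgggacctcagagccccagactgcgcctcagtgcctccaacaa
Cxcl3, chr5:90785981-90786100, plus strand: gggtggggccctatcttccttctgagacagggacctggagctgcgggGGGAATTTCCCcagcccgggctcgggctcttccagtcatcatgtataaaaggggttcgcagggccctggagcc
Pf4, chr5:90772315-90772434, plus strand: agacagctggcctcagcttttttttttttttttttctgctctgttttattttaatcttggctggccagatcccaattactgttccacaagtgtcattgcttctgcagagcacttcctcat

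The shared run, GGGAATTTCCC, is the longest found in the 250 bases before the start of all 3 genes. It has the form of a site for NF-kB, a transcription factor known to drive these chemokines in inflammation. Its first base lies 71 bases before the start of *Cxcl1*, 97 before that of *Cxcl2* and 73 before that of *Cxcl3*. Searched on both strands, it is held by 14 of 32851 promoter windows (0.0426%) and, among the 8 of the 10 genes with a window, by no other. A second shared run of 8 bases, ATAAAAGG, which resembles a TATA box and does not overlap the first, is held by 507 windows (1.54%), that of *Ppbp* included. These matches are descriptions of letters, and binding was not measured.

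Per library, between 16467560 and 17156728 estimated counts were recorded, and libraries of one genotype correlated at 0.98 to 0.992 (Pearson, log2 counts). The genotype contrast was fitted with edgeR's quasi-likelihood method over the 12256 genes that passed its filter on low counts, and a positive log2 fold change means a higher value in the Cre-labelled libraries. A gene is called where its fold change is at least 1.5 in either direction with an unadjusted *P* under 0.05. By this rule 282 genes were called (2.3% of those tested), of which 167 were higher (1.36%) and 115 lower (0.938%), and 5 genes (0.0408%) had an adjusted p under 0.05. The median log2 fold change of all tested genes was -0.02. The targeted gene *Becn1* had counts of 2034, 1892 and 2103 for the *Becn1*f/f genotype and 1775, 1731 and 1849 for the Cre-labelled one, a log2 fold change of -0.15 (95% interval -0.42 to 0.12), so the genotype is given throughout as labelled. Values summed over a gene do not show which of its exons were read. By other assays, the paper reported less *Becn1* mRNA in sorted marrow MKs and platelets (RT-qPCR), less Becn1 protein in MKs (imaging flow cytometry) and none detectable in platelets (western blot).

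The labelled cell type was checked against 18 MK and platelet genes. *Itga2b* and *Itgb3*, which encode the chains of the platelet fibrinogen receptor, were at a mean of 52.6 and 21.7 FPKM over the 6 libraries, whereas the platelet glycoprotein genes *Gp1ba*, *Gp5* and *Gp9* were at only 1.38, 1.05 and 2.09 FPKM. FPKM are fragments scaled by gene length and library size, so that levels of different genes can be compared. *Pf4* itself ranked 5846 of 16579 genes by mean FPKM and *Ppbp* 7753, although both are among the most abundant transcripts of mature MKs and platelets. The 18 genes together held 0.0454% to 0.0558% of the counts of a library, and 16 neutrophil genes held 0.978% to 1.75%. In these bulk libraries, fewer cells of a type and less RNA per cell cannot be told apart.

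By mean level the 10 genes fell into 3 tiers. *Cxcl2* (mean over the 6 libraries of 386 FPKM, rank 223 of 16579) and *Cxcr4* (292 FPKM, rank 297) stood far above the rest, and their ranges over the libraries overlapped. They were followed, without overlap, by *Cxcl3* at 23.0, *Cxcr2* at 16.6, *Pf4* at 13.3, *Cxcl1* at 10.8 and *Ppbp* at 7.06 FPKM, among which each neighbour in the order overlapped the next. Below these came *Cxcl12* at 0.983, *Csf3* at 0.520 and *Cxcl5* at 0.0283 FPKM, each overlapping the next. *Cxcl12* did not overlap *Ppbp*, but *Csf3* reached 2.29 in 1 library, above the lowest *Ppbp* value of 1.65. The most abundant chemokine of the *Pf4* locus in these sorted cells was thus *Cxcl2*, with 83.7% to 92.6% of the FPKM of the 6 locus genes in each library. *Pf4* took 1.85% to 5.05% of it.

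**Figure D1:**
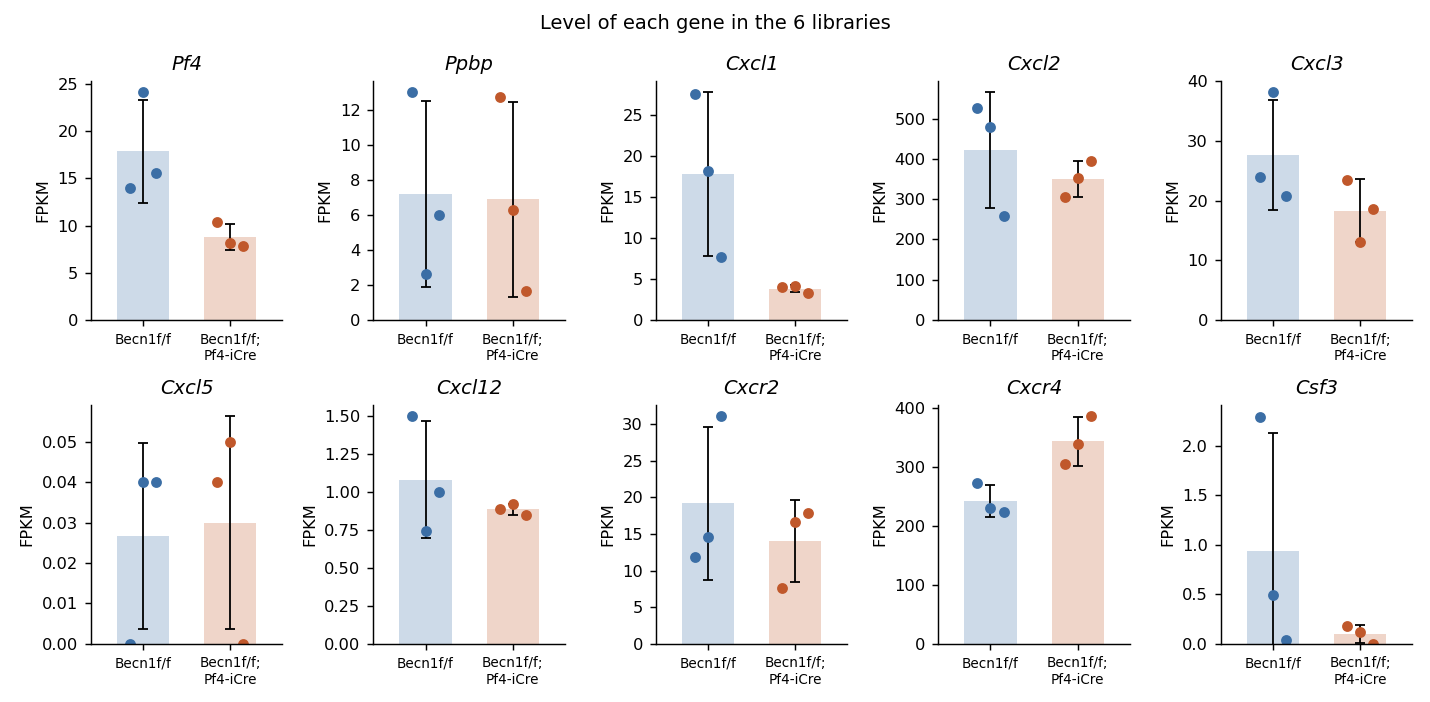
Level of each of the 10 genes in FPKM (vertical axes, a separate scale for each gene) in *Becn1*f/f libraries (blue) and libraries labelled *Becn1*f/f;*Pf4-iCre* (orange). Points are the libraries, bars the mean of 3 and lines 1 SD, cut off at 0; the genotypes do not overlap for *Pf4*, *Cxcl1* and *Cxcr4*.

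*Pf4* encodes platelet factor 4, the chemokine whose regulatory sequence drives the Cre. Its FPKM were 13.9, 24.1 and 15.5 in *Becn1*f/f libraries 1, 2 and 3 and 10.4, 8.13 and 7.88 in Cre-labelled libraries 1, 2 and 3. All 3 of the latter were below the lowest *Becn1*f/f library, and the highest value was in *Becn1*f/f library 2. The estimated counts behind them were small, at 60, 117 and 73 against 51, 35 and 35. Mean levels were 17.9 ± 5.46 and 8.80 ± 1.39 FPKM (SD, n = 3 each), and the normalized counts were 2.02-fold lower, a log2 fold change of -1.01 (standard error 0.29, 95% interval -1.64 to -0.38). Leaving out single libraries gave -1.22 to -0.71, with the smallest difference without *Becn1*f/f library 2. The summed level of the MK and platelet genes overlapped between the genotypes. It was 534, 447 and 540 CPM (counts scaled to library size) against 515, 479 and 457. Most of it came from *Itga2b*, *Nfe2* and *Itgb3*, at 173, 134 and 114 of 507 CPM on average in *Becn1*f/f libraries. Of the 16 genes tested, 0 were called, where 2.3% of all tested genes were, and 10 fold changes were negative and 6 positive. Among them 1, *Gata1* (log2 fold change of -0.44), was at an unadjusted *P* under 0.05. The part of MK content in the *Pf4* difference was not tested.

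*Ppbp*, the neighbour of *Pf4* and likewise a gene of platelet alpha granules, had another pattern. Its FPKM were 13.02, 2.63 and 6.0 in *Becn1*f/f libraries and 12.8, 6.28 and 1.65 in the Cre-labelled libraries. Each genotype thus held a library near 13 and one near 2, and the ranges overlapped almost fully. The log2 fold change was -0.03 with a 95% interval of -1.38 to 1.32, which leaves room for a difference of more than 2-fold in either direction. Its sign turned when single libraries were left out, with 0.74 without *Becn1*f/f library 1, and 0.06 and 0.44 without Cre-labelled libraries 2 and 3.

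*Cxcl1* encodes the mouse neutrophil attractant also known as KC. Its FPKM were 27.6, 18.2 and 7.65 in *Becn1*f/f libraries and 4.02, 4.17 and 3.31 in the Cre-labelled libraries. The *Becn1*f/f libraries lay far apart and the others close together, with a coefficient of variation of 56.0% against 12%, and the lowest *Becn1*f/f library was still above all 3 of the others. Estimated counts were 285, 202 and 84 against 45, 43 and 35. Mean levels were 17.8 ± 9.98 and 3.83 ± 0.459 FPKM (SD, n = 3 each), and the normalized counts were 4.62-fold lower, the largest difference among the 10 genes that was fitted on filtered counts (log2 fold change of -2.21, standard error 0.40, 95% interval -3.07 to -1.34). Without *Becn1*f/f library 1, in which *Cxcl1* was highest, it was -1.73, and without *Becn1*f/f library 3, in which it was lowest of that genotype, -2.58.

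*Cxcl2* and *Cxcl3* lie on either side of *Cxcl1* and share the promoter run shown above. *Cxcl2*, also known as MIP-2, was at 526, 480 and 257 FPKM in *Becn1*f/f libraries and at 305, 351 and 395 in the Cre-labelled libraries. *Becn1*f/f library 3 held the lowest value of all 6 and the other *Becn1*f/f libraries the highest, so the ranges overlapped. Its log2 fold change was -0.26 (standard error 0.23, 95% interval -0.77 to 0.24), but -0.53 without *Becn1*f/f library 3, -0.05 without *Becn1*f/f library 1 and -0.16 without *Becn1*f/f library 2. *Cxcl3* was at 24.0, 38.1 and 20.8 FPKM against 23.5, 13.03 and 18.6, with 1 Cre-labelled library inside the *Becn1*f/f range. Its log2 fold change of -0.57 (standard error 0.27, 95% interval -1.15 to 0.01) was just under the 1.5-fold threshold. It passed both thresholds without *Becn1*f/f library 1 (-0.65), without *Becn1*f/f library 3 (-0.76) and without Cre-labelled library 1 (-0.83), and was -0.27 without *Becn1*f/f library 2 and -0.36 without Cre-labelled library 2.

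The paralogs differed in their proportions within a library. The ratio of *Cxcl2* to *Cxcl1* FPKM was 19.1, 26.4 and 33.6 in *Becn1*f/f libraries and 76.0, 84.3 and 119 in the Cre-labelled libraries, without overlap, or 26.4 ± 7.28 against 93.2 ± 23.0 (SD, n = 3 each). The share of *Cxcl1* in the summed FPKM of *Cxcl1*, *Cxcl2* and *Cxcl3* was 4.77%, 3.39% and 2.68% against 1.21%, 1.13% and 0.795%. Being ratios within a library, these values do not depend on how libraries are scaled. The ratio of *Cxcl2* to *Cxcl3* overlapped, at 21.9, 12.6 and 12.4 against 13.01, 27.0 and 21.3. These ratios rest on the same counts as the selection of the genes and are a description.

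**Figure D2:**
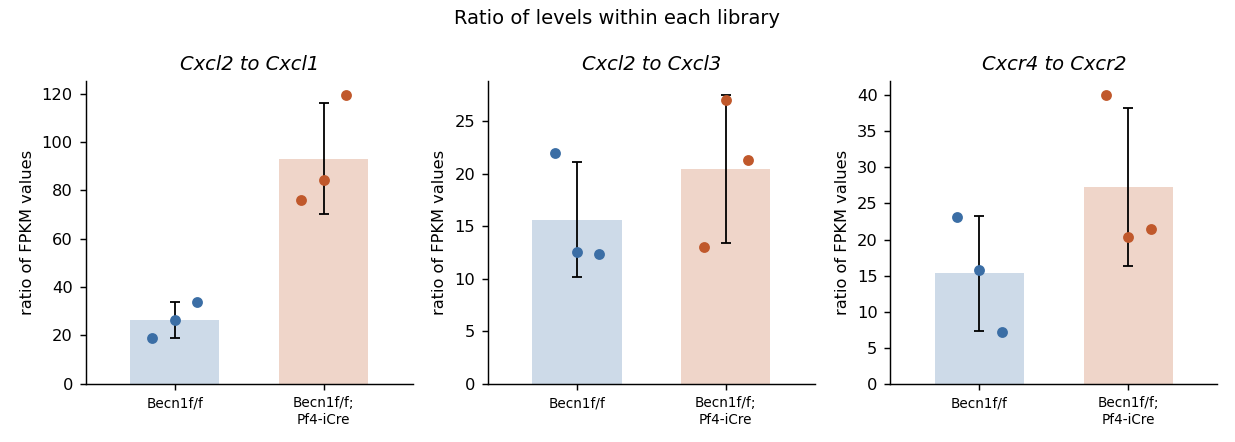
Ratio of the FPKM of *Cxcl2* to *Cxcl1*, *Cxcl2* to *Cxcl3* and *Cxcr4* to *Cxcr2* within each library (vertical axes, from 0), for *Becn1*f/f (blue) and *Becn1*f/f;*Pf4-iCre* (orange) libraries; points are libraries, bars means of 3 and lines 1 SD. The *Cxcl2* to *Cxcl1* ratio is at most 33.6 in *Becn1*f/f libraries and at least 76.0 in the others, while the other ratios overlap.

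*Cxcl5*, also known as LIX, had an estimated count of 0 or 1 in every library and was not tested. With so few counts no difference was detectable at this depth. Of the genes that flank the locus, *Rassf6* had 2 to 7 counts and was not tested, and *Mthfd2l* had 30 to 35 counts in *Becn1*f/f libraries and 25 to 41 in the others, a log2 fold change of 0.12 (95% interval -0.50 to 0.75). Along the locus, *Pf4* and *Cxcl1* were lower by the call rule, *Cxcl2* and *Cxcl3* had negative fold changes that did not pass it, and *Ppbp* between *Cxcl5* and *Pf4* was near 0.

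*Csf3* encodes G-CSF, the main growth and mobilizing factor of neutrophils. It had 43, 12 and 1 estimated counts in *Becn1*f/f libraries and 5, 3 and 0 in the Cre-labelled libraries. *Becn1*f/f library 1 alone held 43 of the 56 counts of its genotype, and *Becn1*f/f library 3 was below 2 of the 3 libraries of the other genotype. The gene did not pass the filter on low counts, and a fit without that filter gave a log2 fold change of -2.76 (standard error 0.96) with which it passed the call rule. It passed the filter and was called also without *Becn1*f/f library 3, without Cre-labelled library 1 and without Cre-labelled library 2. Without *Becn1*f/f library 1 or 2 it did not pass the filter, so every fit that called it included *Becn1*f/f library 1. *Csf3* was fitted but not called without Cre-labelled library 3, nor with limma on log2(FPKM + 1) or log2(FPKM + 0.1) over all genes. In FPKM it was 0.940 ± 1.19 against 0.10 ± 0.0917 (SD, n = 3 each). The receptor gene *Csf3r*, a marker of granulocytic cells, was at 256, 284 and 404 CPM against 218, 272 and 239, with overlap and a log2 fold change of -0.37 (95% interval -0.76 to 0.01).

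*Cxcl12*, the retention signal, was at 1.5, 0.740 and 1.00 FPKM in *Becn1*f/f libraries and at 0.890, 0.920 and 0.850 in the Cre-labelled libraries. The latter lay inside the *Becn1*f/f range. Its log2 fold change was -0.27 (standard error 0.30, 95% interval -0.94 to 0.40), but 0.05 without *Becn1*f/f library 1, in which it was highest, and -0.48 without *Becn1*f/f library 2, in which it was lowest. Of 15 stromal and endothelial genes, 8 did not pass the filter on low counts, among them *Lepr*, *Kitl*, *Foxc1* and *Ebf3*, genes of the CXCL12-rich reticular cells of the marrow, which were at 0.0200 to 0.279 CPM on average in a genotype. Of the 7 tested, 1 was called, where 2.3% of all tested genes were. This gene, *Kdr*, an endothelial growth factor receptor, was lower without overlap at 1.88, 1.84 and 2.43 CPM against 1.32, 1.45 and 0.772. *Pdgfrb*, a gene of pericytes and stroma, and *Pecam1*, which endothelial cells, platelets and leukocytes carry, were at 11.7 and 108 CPM on average in *Becn1*f/f libraries and 12.3 and 94.6 in the others. The list summed to 126 to 145 CPM in *Becn1*f/f libraries and 116 to 136 in the others, and its part in the *Cxcl12* values was not tested. *Ackr3*, the scavenging receptor of CXCL12, had 0 to 8 counts in a library and was not tested.

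*Cxcr4* was the only one of the 8 fitted genes with a positive fold change. Its FPKM were 273, 230 and 224 in *Becn1*f/f libraries and 304, 339 and 386 in the Cre-labelled libraries. The 3 latter libraries were all above the former, with means of 242 ± 26.7 and 343 ± 41.0 FPKM (SD, n = 3 each). The log2 fold change of 0.51 (standard error 0.15, 95% interval 0.19 to 0.83) is 1.42-fold and under the 1.5-fold threshold, which it passed without *Becn1*f/f library 1 (0.64). Cells of many lineages carry *Cxcr4*. Beside it, the summed level of 6 monocyte genes was 2990, 3378 and 3245 CPM in *Becn1*f/f libraries and 4092, 4170 and 4069 in the others, also without overlap, with all 6 fold changes positive and 1 gene called. Their part in the *Cxcr4* difference was not tested. Among all tested genes, 2.3% were called.

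*Cxcr2* encodes the neutrophil receptor of CXCL1, CXCL2, CXCL3, CXCL5 and processed PPBP. It was at 11.8, 14.6 and 31.1 FPKM in *Becn1*f/f libraries and at 7.60, 16.6 and 17.9 in the Cre-labelled libraries. *Becn1*f/f library 3 stood apart and the remaining values overlapped. The log2 fold change was -0.43 (standard error 0.34, 95% interval -1.17 to 0.31), but 0.08 without *Becn1*f/f library 3, -0.14 without Cre-labelled library 1 and -0.66 without *Becn1*f/f library 1. The ratio of *Cxcr4* to *Cxcr2* overlapped between the genotypes, at 23.1, 15.7 and 7.19 against 40.0, 20.4 and 21.5. The 16 neutrophil genes summed to 18054, 12856 and 14934 CPM against 10058, 10470 and 13390, with 15 of 16 fold changes negative, a median of -0.41 and 1 gene called. Their part in the *Cxcr2* value was not tested. Among all tested genes, 2.3% were called.

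Of the 10 genes, 8 passed the filter on low counts. *Pf4* and *Cxcl1* were called, both lower, where 2.3% of all tested genes were called and 0.938% were called lower. Of the 8, 7 had negative fold changes, with a median of -0.35. Among all 12256 tested genes, 6677 had negative fold changes and the median was -0.02. The genotypes did not overlap for *Pf4*, *Cxcl1* and *Cxcr4*, where 10.6% of all tested genes were without overlap. Since the genes were selected on this same contrast, nothing is read from these counts against the background.

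**Figure D3:**
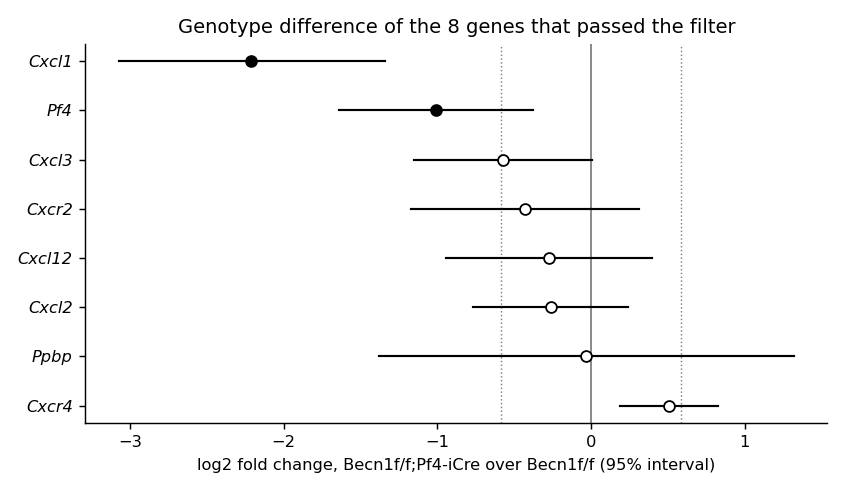
Log2 fold change (horizontal axis) of the 8 of the 10 genes that passed the filter on low counts, *Becn1*f/f;*Pf4-iCre* over *Becn1*f/f, with 95% intervals from the edgeR fit. Filled points passed the 1.5-fold threshold (dotted lines) with an unadjusted *P* under 0.05; *Cxcl1* at -2.21 and *Pf4* at -1.01 lie to the left of the threshold and *Cxcr4* at 0.51 is the only one above 0.

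Some marker genes of other cell types were called as well, with 0 of the erythroid, macrophage and B-cell genes at an adjusted p under 0.05 in edgeR. Of 12 erythroid genes, 7 were called lower and 0 higher, at a median of -0.68 on the log2 scale, with sums of 694, 563 and 434 CPM against 329, 434 and 384. Among the *Becn1*f/f libraries, library 1 was highest and library 3 lowest in this sum, as they were for *Cxcl1*. Of 14 macrophage genes, 4 were called higher and 0 lower, with sums of 850 to 909 CPM against 918 to 1114 and a median of 0.29. Of 10 B-cell genes, 1 was called lower, and their sums overlapped at 169 to 290 against 167 to 225 CPM. Among all tested genes, 0.938% were called lower and 1.36% higher. The part of these cells in the values of the chemokine genes was not tested.

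**Figure D4:**
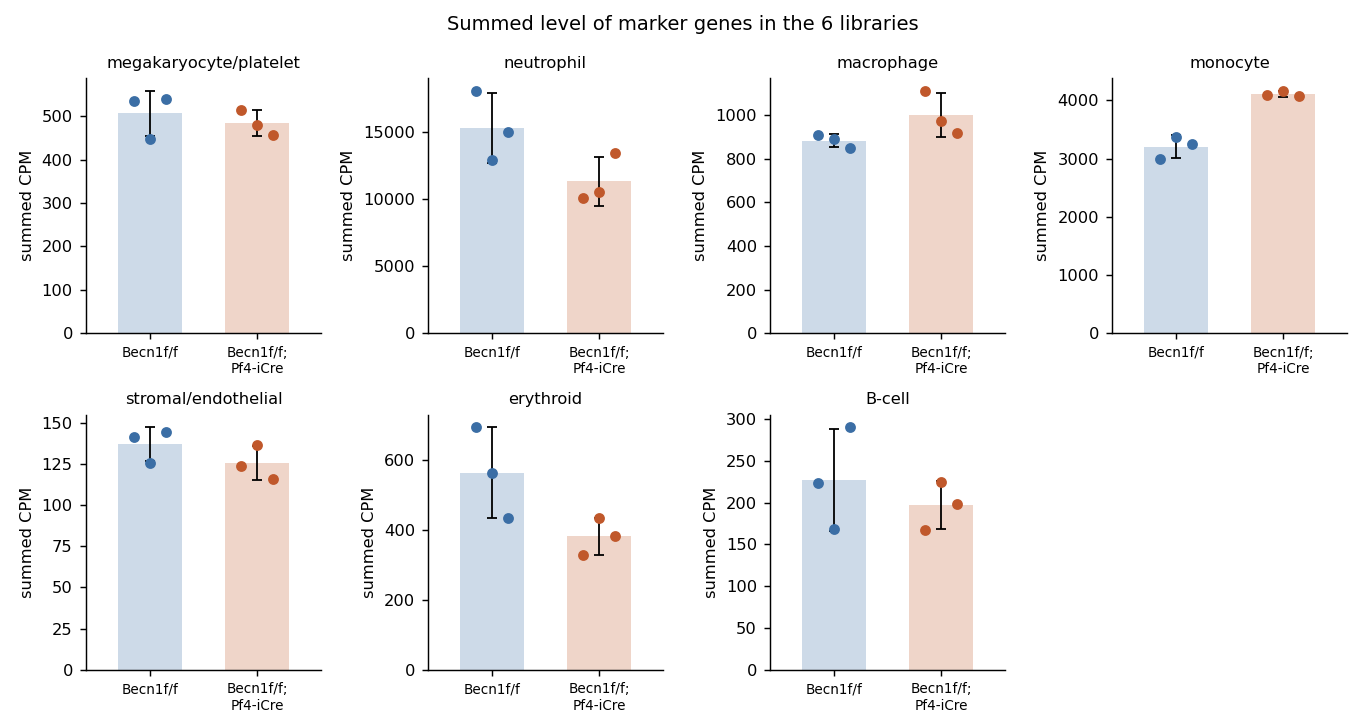
Summed level of marker genes of 7 cell types in CPM (vertical axes, from 0, a separate scale for each list) in *Becn1*f/f (blue) and *Becn1*f/f;*Pf4-iCre* (orange) libraries; points are libraries, bars means of 3 and lines 1 SD. Monocyte and macrophage sums are higher without overlap in the orange libraries, MK and platelet, stromal and endothelial, neutrophil, erythroid and B-cell sums overlap.

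The genes whose log2 CPM ran most like those of *Cxcl1*, *Pf4* and *Cxcl12* over the 6 libraries were looked up among the 12255 other tested genes. For *Cxcl1* these were *Fmn2*, *Xrcc2* and *Hba-a1*, with Pearson correlations of 0.980, 0.976 and 0.968, and 39 genes reached 0.9. *Hba-a1* encodes an alpha globin and has a near-identical copy, so its count is uncertain. For *Pf4* they were *Evpl*, *Apba3* and *Pnp2* (0.992, 0.989 and 0.986), with 126 genes at 0.9 or more. For *Cxcl12* they were *Srrm1*, *Gm7972* and *Ttpal* (0.998, 0.994 and 0.992), with 167. Over 6 libraries of 2 genotypes such values arise readily among so many genes, which share the libraries and their depth, and they describe likeness only.

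Of the other genes of the pathways, in 6 lists, 95 were tested and 7 passed the call rule (7.37%), where 2.3% of all tested genes did. The lists were chosen with results of these data known. Of 14 further CXC chemokine and CXC receptor genes, 10 were found by symbol and 6 were tested. Of the latter, 1 was called, *Cxcl10*, an interferon-induced chemokine that acts on CXCR3. It was at 25.1, 25.8 and 14.5 CPM in *Becn1*f/f libraries and 15.6, 11.5 and 11.1 in the others, and its log2 fold change was -0.77 (SE 0.23, Benjamini-Hochberg adjusted p = 0.45 in edgeR). *Becn1*f/f library 3 lay inside the other genotype's range. *Cxcl16*, a membrane-bound chemokine, overlapped at 11.1, 6.38 and 2.99 CPM against 7.37, 4.28 and 3.27. Of the genes absent from that test, *Cxcr1*, the sister receptor of *Cxcr2*, had 6, 10 and 12 counts against 1, 4 and 4, and *Ackr1*, a scavenging receptor, had 0, 2 and 0 against 2, 3 and 7. Both passed the call rule in a fit without the filter, in opposite directions.

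Of 20 genes that carry the signal of CXC receptors, such as G protein subunits, arrestins and Rac activators, all were tested and 1 was called. *Grk5*, a kinase that desensitizes such receptors, was at 38.9, 51.5 and 58.4 CPM in *Becn1*f/f libraries and 82.7, 89.1 and 81.9 in the Cre-labelled libraries. The genotypes were well apart, and the log2 fold change was 0.77 (SE 0.16, adjusted p = 0.13 by edgeR, 0.00305 by DESeq2 and up to 0.572 in other settings). The other 19 had fold changes between -0.23 and 0.23. Of 17 genes of the G-CSF receptor pathway, 0 were called, by DESeq2 as by edgeR, and 2 had an unadjusted *P* under 0.05. The smallest *P* belonged to *Cebpe*, a transcription factor of late granulocyte maturation (log2 fold change of -0.55), and *Lyn*, a Src-family kinase that binds the receptor (0.41), and in both the genotypes did not overlap. *Cebpe* passed both thresholds without *Becn1*f/f library 3 (-0.59) and without Cre-labelled library 3 (-0.71).

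Of 17 genes of neutrophil retention and release, 12 were tested and 1 was called. *Mmp9*, the gelatinase of neutrophil granules, was at 393, 329 and 612 CPM in *Becn1*f/f libraries and 238, 329 and 317 in the others, and its log2 fold change was -0.59 (SE 0.22, adjusted p = 0.61 by edgeR), but -0.29 without *Becn1*f/f library 3 and -0.46 without Cre-labelled library 1, where the call was lost. *Vcam1*, an adhesion molecule of stroma and macrophages, overlapped at 113, 34.2 and 38.0 CPM against 64.1, 44.4 and 52.4. Neither the integrin genes nor the selectin genes of the list were called.

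*Cxcl1*, *Cxcl2* and *Cxcl3* are early response genes, so 24 NF-kB-induced genes and 16 immediate-early genes were also followed. Of the former, 3 were called and all were higher. *Ccl2*, which attracts monocytes, was at 58.3, 56.6 and 36.7 CPM in *Becn1*f/f libraries and 102, 99.0 and 117 in the others (log2 fold change 1.07, SE 0.18, adjusted p = 0.083 by edgeR, 1.8e-05 by DESeq2 and up to 0.310 in other settings). These groups did not overlap, whereas those of *Ccl7*, its neighbour and paralog, and of *Cd83*, an activation marker, did. *Ccl7* rested on 24, 18 and 2 counts against 50, 38 and 21 (log2 fold change of 1.31), and *Cd83* was at 43.0, 21.9 and 16.1 CPM against 54.4, 49.1 and 33.0 (0.76). The call of *Ccl7* was lost without *Becn1*f/f library 3 (0.78) and without Cre-labelled library 1 (1.01) or 2 (1.27). That of *Cd83* was lost without *Becn1*f/f library 2 (0.62) or 3 (0.49) and without Cre-labelled library 1 (0.60) or 2 (0.70). The list's median was 0.03, with 13 positive and 11 negative fold changes.

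Of the 16 immediate-early genes, 14 had positive fold changes, with a median of 0.29, and 1 was called. *Klf4*, a transcription factor also prominent in monocytes, was at 540, 424 and 417 CPM in *Becn1*f/f libraries and 710, 771 and 718 in the Cre-labelled libraries, without overlap (log2 fold change 0.67, SE 0.15, adjusted p = 0.17 by edgeR, 0.00329 by DESeq2 and up to 0.812 in other settings). The summed level of the list was 12365, 12535 and 13917 CPM against 14837, 15727 and 18930. With single libraries left out the number called was 2 to 5, being lowest without Cre-labelled library 3 and highest without Cre-labelled library 1. The medians of the other 5 lists lay between -0.02 and 0.03, beside -0.02 for all tested genes.

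**Figure D5:**
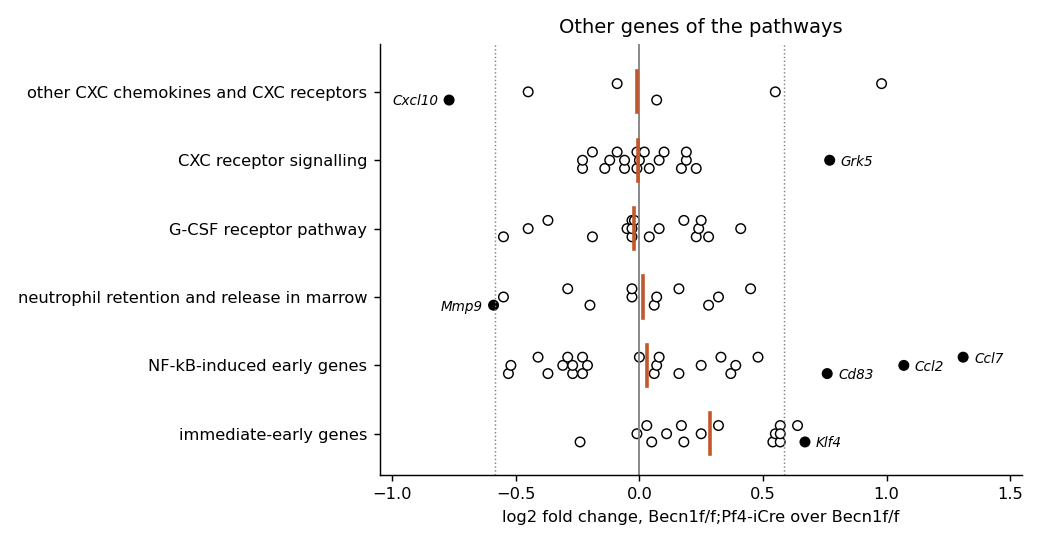
Log2 fold change (horizontal axis, *Becn1*f/f;*Pf4-iCre* over *Becn1*f/f) of the tested genes of 6 pathway lists; each circle is a gene, filled and named where it passed the 1.5-fold threshold (dotted lines) with an unadjusted *P* under 0.05, and orange bars mark list medians. The 7 filled genes include 5 to the right and 2 to the left, and the immediate-early list is the one with its median away from 0, at 0.29.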

How the data were processed

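RNA of MKs sorted from mouse bone marrow was sequenced by BGI on the DNBSEQ platform in 6 libraries, 3 per genotype. The authors filtered reads and mapped them with HISAT; the submitters' processing notes also name Bowtie2 and the build GRCm39, and the counting tool is not given in the sources used here. The authors deposited for each gene an estimated count, not normalized and not whole for 10.3% to 11.3% of genes per library, and an FPKM value scaled for gene length and library size. Another 16 columns of per-sample values, 4 of them of 1 library that matches no sample, and 8 columns of group means were not used.

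Estimated counts were rounded, filtered with edgeR 4.0.16 (filterByExpr, R 4.3.3), TMM-normalized and tested with its quasi-likelihood test on genotype alone, with Benjamini-Hochberg adjustment. Calls used the study's own thresholds (at least 1.5-fold with an unadjusted *P* under 0.05). CPM use TMM-scaled library sizes. The labels do not say that the libraries came from separate animals, so p-values measure the spread between libraries, which may be technical. The counts of each replicate pair differed beyond sampling (chi-square over its degrees of freedom 14.6 to 47.6). The steps were tested on simulated data.

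The 10 genes and all gene lists were chosen with earlier results of these data known. Genes named singly were, by rule, those 10, *Becn1*, *Csf3r*, *Ackr3*, *Cxcl16*, *Vcam1* and *Mmp9*, called members of the pathway lists (or the 2 with the smallest *P*), and the 3 genes most correlated with *Cxcl1*, *Pf4* and *Cxcl12*. Marker and flanking genes, *Cxcr1* and *Ackr1* were named after their values were seen. Promoters are from RefSeq on GRCm38.p6, with a window for 8 of the 10 genes, and no coordinate was taken from the deposited table. Alternatives were DESeq2 1.42.0, edgeR with DESeq2's size factors or with upper-quartile scaling, no filter on counts or a minimum of 10 per sample, a replicate block, limma 3.58.1 on log2(FPKM + 1), with and without a mean of at least 1, and on log2(FPKM + 0.1), adjusted p-values and each library left out. A correction for GC content and length was added after seeing the data.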

Additional observations from a re-analysis of the deposited data

How the results depend on the processing

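The 10 genes were selected on the values of these libraries, so their calls under other settings describe the processing and lend no support. *Pf4* and *Cxcl1* passed the call rule in all 16 settings that use it. With single libraries left out, fold changes ranged from -0.89 to 0.74 for *Ppbp*, -0.48 to 0.05 for *Cxcl12* and -0.66 to 0.08 for *Cxcr2*, each turning sign (*Ppbp* also 0.06 and 0.44), and the number of the 10 genes called from 2 to 4. With limma on FPKM, the genes called numbered 121 (88 higher, 33 lower) at a pseudocount of 1, 137 (96 and 41) with a mean of at least 1, and 432 (216 lower) at a pseudocount of 0.1. Leaving out libraries gave 225 to 410 calls, 133 to 267 higher (most without *Becn1*f/f library 1) and 92 to 208 lower (most without *Becn1*f/f library 2). At an adjusted p under 0.05, 5 genes were called, 5 higher and 0 lower, with 0 of the 10 genes and 0 in each list. DESeq2 gave 77 genes at that level, *Cxcl1*, *Grk5*, *Ccl2* and *Klf4* among them.

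Over left-out libraries the pathway lists together had 9 to 12 calls against 7: other CXC genes 1 to 3, the G-CSF receptor pathway 0 to 2, retention and release 0 to 2, NF-kB-induced genes 1 to 4 (1 without Cre-labelled library 2) and immediate-early genes 2 to 5. Other CXC genes had 3 calls without a filter or at a pseudocount of 0.1. *Cxcl3* was called with upper-quartile normalization (-0.59) and *Cd83* was not called with DESeq2. *Mmp9* was not called in any of the limma fits or after GC and length correction, leaving 0 in its list. Immediate-early genes had 2 with upper-quartile normalization, without a filter or with a mean FPKM of at least 1, and 5 after GC and length correction. The causes were not tested.

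With the replicate number as a block, 296 genes were called, with 2 of the 10 genes, 2 other CXC genes, 0 retention genes and 2 immediate-early genes. *Cxcl1* had an adjusted p under 0.05 with the block, without a filter and without *Becn1*f/f library 3. Deviations from the genotype means, taken over all tested genes, correlated at 0.068, -0.279 and 0.201 between same-numbered libraries. The other pairs of libraries across the genotypes gave -0.297 to 0.241. With 3 libraries per genotype, these values do not show whether the numbers pair the libraries. Fold changes of all genes followed GC content (Spearman -0.34 across genes, which are not replicates, and 0.023 after correction). Counts under 120 in *Pf4* and under 50 in *Csf3* limit what 3 libraries per genotype can show.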
